A study of Mus musculus with 12 samples.

Results

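The family of miR-130 and miR-301 is a group of microRNAs (miRNAs) that share the same seed, the bases near the 5′ end through which a miRNA pairs with its target messenger RNAs. In the serum libraries described here it was represented by 4 rows of the count tables: miR-130a-3p (MIMAT0000141), miR-130b-3p (MIMAT0000387) and miR-301a-3p (MIMAT0000379) in the mouse tables, and miR-130a-3p (MIMAT0000425) in the human tables. These 4 rows were chosen by accession, with their values before and after tumour cell injection already known, out of 1340 mature miRNAs listed in any library (874 in the mouse and 466 in the human tables). Their change after injection is therefore given as a description, without p-values, and no support is drawn from it. The effect of tRNA-fragment depletion, the make-up of the family and the gap between the 2 rows of miR-130a-3p were examined in the same libraries. The gap had also been named when the rows were chosen, so that its presence is a description too.

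Serum had been collected from 3 female athymic NCr nude mice (mice 1046, 1047 and 1069), before and 2 weeks after injection of 1000000 SH-SY5Y cells beneath the capsule of the kidney. The age given for the mice, 4 to 6 weeks, is that at which the xenografts were made. SH-SY5Y is a cell line that was derived from a human neuroblastoma, and athymic nude mice lack the T cells that would reject human cells. Each of the 6 sera was represented by 2 aliquots, and 5′ tRNA fragments, cleavage products that dominate such libraries, were depleted from 1 of them with biotinylated probes and streptavidin beads. This gave 4 groups of 3 libraries (before or after injection, depleted or undepleted). No mice injected without tumour cells were part of the series, so tumour, time and surgery cannot be told apart.

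miRNAs act inside Argonaute proteins and lower the translation and stability of messenger RNAs that carry a match to their seed. Because members of a seed family can bind the same sites, they are often considered together. miR-130a is known from blood vessel formation and from blood cell precursors, and miR-301a from inflammatory signalling in tumours. In serum, miRNAs circulate in vesicles or bound to protein, and their cell of origin cannot be read from their sequence alone. In bulk serum, fewer cells releasing a miRNA and less miRNA per cell also cannot be told apart.

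The mature sequences of the 3 members show what the family shares and where its members differ. They were taken from RefSeq on mouse build GRCm38.p6, are written 5′ to 3′, and have the seed (bases 2 to 8) in capitals.
miR-130a-3p: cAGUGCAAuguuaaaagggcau
miR-130b-3p: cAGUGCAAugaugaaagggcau
miR-301a-3p: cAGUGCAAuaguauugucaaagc

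The mature forms lie at chr2:84741116-84741137 on the minus strand for miR-130a-3p, at chr16:17124071-17124092 on the minus strand for miR-130b-3p and at chr11:87113054-87113076 on the plus strand for miR-301a-3p. In GENCODE M21, Mir130a overlapped no other gene, Mir130b lay in an intron of 2610318N02Rik and Mir301 in an intron of Ska2. Mir301b, the gene of a further family member, lay in the same intron-bearing gene as Mir130b, with 257 bases between them. Counted from 1 at the 5′ end, miR-130b-3p differed from miR-130a-3p at 2 of 22 positions (U11A and A13G), both outside the seed. miR-301a-3p was identical to miR-130a-3p at 12 of the 22 compared positions, with the first 9 bases in common. Of 1679 mature mouse miRNA names in the RefSeq table, 7 (0.417%) had these bases 2 to 8. These are the 3 members and 4 others, miR-301b-3p not being counted here. The 4 are shown because they share more with miR-130a-3p than the seed alone: the first 15 bases in miR-6389, 12 in miR-130c, 10 in miR-6341 and 9 in miR-721.
miR-130c: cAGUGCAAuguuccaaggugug
miR-6341: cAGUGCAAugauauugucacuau
miR-6389: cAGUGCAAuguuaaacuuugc
miR-721: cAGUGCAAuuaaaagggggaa

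Depth differed widely between the arms. Depleted libraries held between 938706 and 2271549 mouse miRNA counts and undepleted libraries between 21235 and 97183, the smallest being the undepleted aliquot of mouse 1069 before injection. Levels are given as CPM, the count divided by all miRNA counts of the same table and multiplied by 1000000. A count of 3 corresponded to 1.32 to 3.20 CPM in depleted and to 30.9 to 141.3 CPM in undepleted libraries, so that the undepleted values carry a larger counting error.

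miR-130a-3p was the most abundant member, and its level was higher after injection in 3 of 3 mice in both arms. In depleted libraries it stood at 1244, 1335 and 1225 CPM before injection (mice 1046, 1047 and 1069, from 1677, 2431 and 1150 counts) and at 3010, 2928 and 3627 CPM after it (5362, 5098 and 8238 counts). In undepleted libraries it stood at 1420, 1544 and 1036 CPM before (138, 139 and 22 counts) and at 3023, 3619 and 4227 CPM after injection (206, 188 and 209 counts). The groups before and after injection did not overlap in either arm, and mouse 1069 had the highest level after injection in both. How many of all miRNAs were likewise apart was not counted. Nothing particular to the family is therefore read from the missing overlap, here or for the rows below. The mean log2 ratio of after to before was 1.32 ± 0.22 in depleted (SD, n = 3, a 2.50-fold geometric mean) and 1.45 ± 0.51 in undepleted libraries (SD, n = 3, 2.73-fold). Among the 546 to 614 miRNAs listed in a depleted library, miR-130a-3p ranked 52nd to 65th by count before and 35th to 39th after injection.

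miR-301a-3p, the second member by level in depleted libraries, was also higher after injection in every mouse. Its depleted values were 946, 958 and 945 CPM before and 1758, 1788 and 1385 CPM after injection. Its undepleted values were 669, 878 and 1036 CPM before (65, 79 and 22 counts) and 1776, 1906 and 1355 CPM after injection (121, 99 and 67 counts). The groups did not overlap, but here mouse 1069 had the lowest level after injection, the opposite of its place for miR-130a-3p. The mean log2 ratio was 0.78 ± 0.20 in depleted (SD, n = 3, 1.72-fold) and 0.97 ± 0.53 in undepleted libraries (SD, n = 3, 1.96-fold).

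miR-130b-3p showed the smallest mean log2 ratio between the time points. In mouse 1069, however, that of miR-301a-3p was smaller (0.55 against 0.71 in depleted, 0.39 against 0.98 in undepleted libraries). Its depleted values were 478, 464 and 424 CPM before and 638, 620 and 694 CPM after injection. Its undepleted values were 864, 667 and 801 CPM before (84, 60 and 17 counts) and 998, 1213 and 1578 CPM after injection (68, 63 and 78 counts). The time points did not overlap within an arm, while every undepleted value before injection was above all depleted values before injection. The mean log2 ratio was 0.52 ± 0.17 in depleted (SD, n = 3, 1.43-fold) and 0.68 ± 0.42 in undepleted libraries (SD, n = 3, 1.61-fold). The summed level of the 3 mouse members went from 2673 ± 82 to 5482 ± 197 CPM in depleted and from 2972 ± 109 to 6565 ± 698 CPM in undepleted libraries (SD, n = 3 each).

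**Figure D1:**
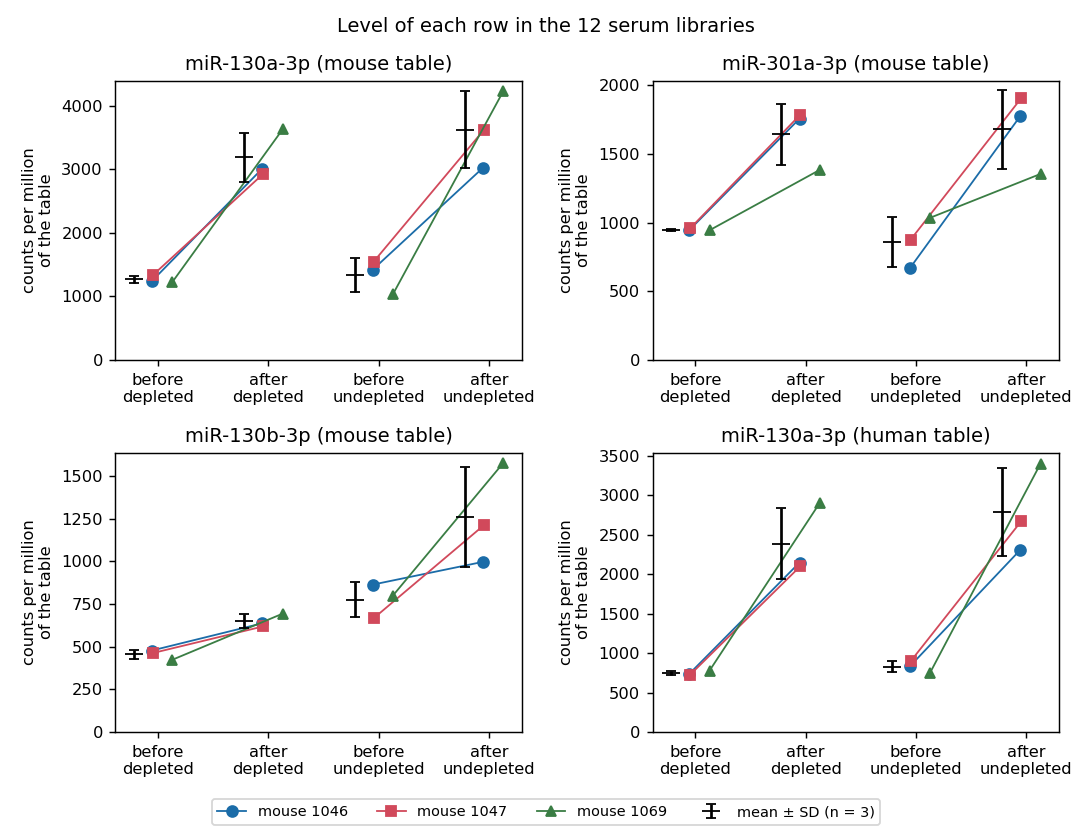
CPM of the 4 rows (y axis, each panel with its own scale from 0) in the 4 groups of libraries (x axis), with lines joining the 2 time points of a mouse and bars giving mean ± SD (n = 3). All lines rise from before to after injection, and miR-130b-3p is the row in which the undepleted values lie highest relative to the depleted ones.

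The human-table row of miR-130a-3p followed the mouse row. In depleted libraries it stood at 737, 726 and 778 CPM of the human counts before injection and at 2147, 2102 and 2904 CPM after it. In undepleted libraries it stood at 833, 899 and 754 CPM before (157, 155 and 26 counts) and at 2307, 2669 and 3399 CPM after injection (233, 212 and 240 counts). The time points did not overlap, with mean log2 ratios of 1.66 ± 0.21 (SD, n = 3, 3.16-fold) and 1.74 ± 0.38 (SD, n = 3, 3.33-fold). The 2 rows are divided by different totals, so the larger ratios do not show a larger rise of the human row. In depleted libraries its counts summed to 6058 before and 20937 after injection, and those of the mouse row to 5258 and 18698. A read matching both genomes could be counted in both tables, so a count in the human table does not mark a read as coming from the injected cells.

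CPM depends on what else was counted, and the miRNAs of red blood cells took a smaller part of the counts after injection. The 5 of 6 listed red cell markers (miR-144-3p, miR-144-5p, miR-451a, miR-486b-5p and miR-16-5p) held 22.9 to 28.7% of the mouse counts before and 11.3 to 16.4% after injection in depleted libraries, and 24.4 to 30.0% and 11.0 to 16.6% in undepleted ones. In the human tables, miR-486-5p, another red cell miRNA, went from 47.2–54.2% to 31.5–39.2% of the depleted counts. In an alternative chosen after seeing the data, the 5 markers were left out of the mouse totals and miR-486-5p alone out of the human totals. Any other red cell miRNA stayed in the human totals, so the 2 adjustments are unlike. The depleted level of miR-130a-3p was then 2.14-fold higher after injection (geometric mean, log2 SD 0.25). That of miR-301a-3p was 1.47-fold (log2 SD 0.18), that of miR-130b-3p 1.22-fold (log2 SD 0.19) and that of the human row 2.46-fold (log2 SD 0.21) higher. Each was higher in 3 of 3 mice (n = 3). In undepleted libraries, miR-130b-3p was then higher in 2 of 3 mice, with a log2 ratio of 0.44 ± 0.39 (SD, n = 3), and the other 3 rows in 3 of 3.

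Markers of other sources were measured beside the family. The 4 of 5 listed white cell markers held 3.21 to 3.95% of the depleted mouse counts before and 3.70 to 4.04% after injection, most of it miR-142a-5p at 30005 to 36620 and then 33527 to 36156 CPM. Of the others, miR-223-3p stood at 618 to 674 and then 1047 to 1314 CPM, and miR-150-5p at 1290 to 2215 and then 2390 to 2962 CPM. In depleted libraries these 2 white cell miRNAs were thus higher after injection in 3 of 3 mice, as the family was. There miR-142a-5p overlapped between the time points, as did miR-155-5p, which had at most 16 counts. In undepleted libraries miR-223-3p and miR-150-5p overlapped as well, unlike the family. Their undepleted levels were 471 to 1033 and then 719 to 1214 CPM for miR-223-3p, and 895 to 1790 and then 1717 to 2063 CPM for miR-150-5p. miR-126a-5p, the listed 1 of 2 markers of platelets and endothelium, held 0.423 to 0.654% and then 0.721 to 0.761%. Both liver markers together held 0.442 to 0.793% and then 1.05 to 1.33%, which was nearly all miR-192-5p, since miR-122-5p, the defining liver miRNA, had a mean of 3.82 normalised counts. The 2 of 3 listed muscle markers held 0.455 to 0.772% and then 0.192 to 0.247%. As DESeq2 log2 fold changes, which do not use the total, the values in depleted libraries were 0.53 for miR-223-3p, 0.35 for miR-150-5p, -0.25 for miR-142a-5p, 0.16 for miR-126a-5p and 0.62 for miR-192-5p, none with an adjusted p-value under 0.05, and -1.64 for the muscle miRNA miR-133a-3p. Their part in the levels of the family was not tested.

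DESeq2 gave smaller values in the same order. It scales each library by the median ratio of all its miRNAs rather than by the total, and its prior also drew fold changes toward 0. A miRNA was called when its p-value, adjusted after Benjamini and Hochberg, was under 0.05 together with a change of at least 2-fold (1 on the log2 scale). In depleted libraries the log2 fold change after injection was 0.98 (SE 0.25) for miR-130a-3p, 0.48 (SE 0.25) for miR-301a-3p and 0.21 (SE 0.26) for miR-130b-3p. In undepleted libraries it was 1.16 (SE 0.29), 0.80 (SE 0.30) and 0.51 (SE 0.32), an order that did not hold without mouse 1046 or without mouse 1069. The median of the 3 members was 0.48 and 0.80 (0.51 and 0.88 without the prior). That of all tested mouse miRNAs was -0.09 and -0.06, and that of 114 abundant ones (at least 50 CPM in every library) was -0.26 and -0.09. Because the members were chosen with these values known, nothing is read from the difference. In normalised counts, miR-130a-3p went from 2251 ± 421 to 4649 ± 674 in depleted and from 78.8 ± 25.3 to 195 ± 32.5 in undepleted libraries (SD, n = 3 each).

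By this rule, 0 of the 3 mouse members were past both limits in depleted libraries, where 4.84% of the 310 tested miRNAs were called higher, and 1, miR-130a-3p, in undepleted libraries, where 8.33% of 108 were. The human row, at 1.01 (SE 0.25) in depleted and 1.20 (SE 0.27) in undepleted libraries, was past them in both arms, where 5.26% of 323 and 6.74% of 89 human miRNAs were called higher. The members were chosen with this comparison known, so these counts are no evidence about them and nothing is read from them. In depleted libraries the 2 rows of miR-130a-3p, at 0.98 and 1.01, lay on either side of the 2-fold line. Over 9 alternatives the mouse row ranged from 0.78 to 1.16 there and the human row from 0.78 to 1.20, both lowest without mouse 1069 and highest without mouse 1047, and with the mouse as a block the human row was just under the line (0.998). In undepleted libraries the lowest values, 0.84 and 0.90, were also those without mouse 1069. Leaving out mouse 1047 in undepleted libraries, or mouse 1046 for the human row in depleted ones, also took the rows out of the called set.

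**Figure D2:**
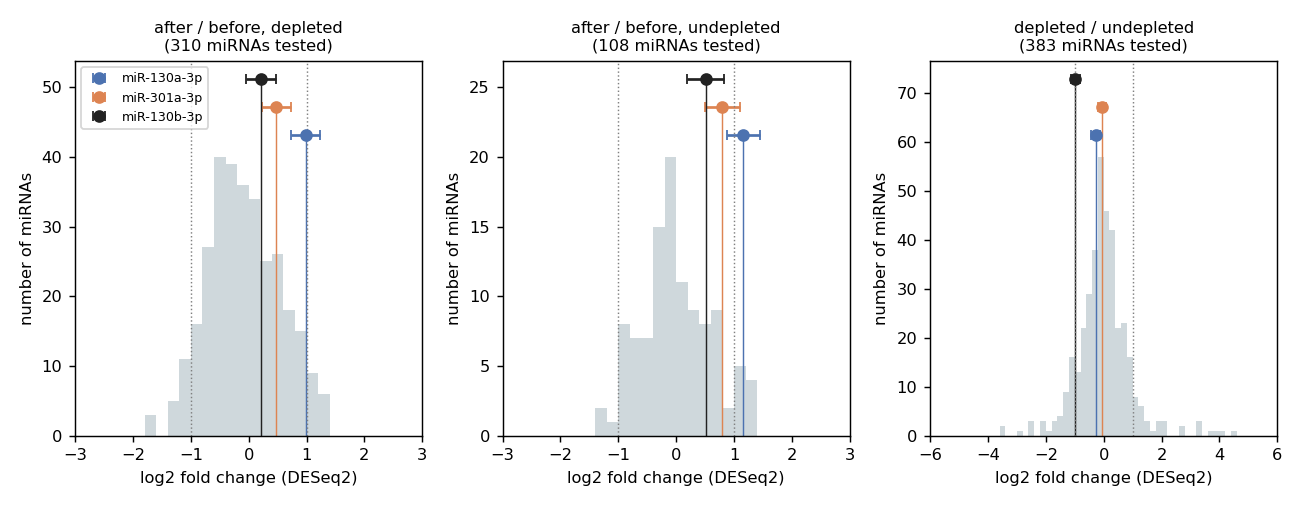
Distribution of log2 fold changes (x axis) over all mouse miRNAs tested in a fit (y axis, number of miRNAs), for after against before injection in each arm and for depleted against undepleted libraries, with each member as a point and its standard error, and dotted lines at a 2-fold change. The members keep the order miR-130a-3p, miR-301a-3p, miR-130b-3p in both tumour fits, and in the depletion fit miR-130b-3p lies apart at -0.98.

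Next, it was evaluated whether depletion of 5′ tRNA fragments altered the measured level of the family. miR-130b-3p was lower in depleted libraries, and neither of the other members had an adjusted p-value under 0.05 in the same fit. That fit did not pair the 2 aliquots of a serum, and with the pairing miR-130a-3p passed as well, as given below. Relative to the undepleted aliquot of the same serum, the CPM of miR-130b-3p was lower in 6 of 6 sera (log2 ratio -0.85 ± 0.24, SD, n = 6, from -1.18 to -0.52). Its depleted and undepleted groups did not overlap at either time point, and how many of all miRNAs did likewise was not counted. In a fit of the 12 mouse tables that also held a term for time, the log2 fold change was -0.98 (SE 0.17, DESeq2 adjusted p = 7.61e-08). By the adjusted p-value alone, 5.74% of 383 tested miRNAs were lower in depleted libraries. The value lay just under the 2-fold line, so that none of the 3 members was among the 8.36% called with the size limit, although without mouse 1046 miR-130b-3p was (-1.02). Over 9 alternatives it ranged from -1.02 to -0.72, and its adjusted p-value was at most 0.023. The human-table row of miR-130b-3p, which held the same counts, gave -0.94 (DESeq2 adjusted p = 1.04e-06).

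miR-130a-3p was lower in the depleted aliquot in 5 of 6 sera by a smaller margin (CPM log2 ratio -0.12 ± 0.20, SD, n = 6). The fit gave -0.28 (SE 0.16, DESeq2 adjusted p = 0.325). With the serum as a replicate block, which compares the 2 aliquots of a serum with each other, the value was again -0.28 (SE 0.09, DESeq2 adjusted p = 0.0103) and past the threshold. The human row behaved alike, with -0.25 (SE 0.16, DESeq2 adjusted p = 0.601) and -0.25 (SE 0.09, DESeq2 adjusted p = 0.0419) with the block. Without mouse 1069 the unpaired fit also passed for both rows, at -0.30 and -0.26 (DESeq2 adjusted p = 0.0225 and 0.0452). For miR-301a-3p the 2 aliquots were split, with 3 sera higher and 3 lower (CPM log2 ratio 0.07 ± 0.23, SD, n = 6), and the fit gave -0.06 (SE 0.15, DESeq2 adjusted p = 0.874).

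The zero point of this comparison depended on the scaling. TMM factors moved the median of 114 abundant mouse miRNAs (at least 50 CPM in every library) from -0.03 to 0.23, and the calls from 19 higher and 13 lower to 32 higher and 10 lower. Under TMM in DESeq2, miR-130b-3p was at -0.72, miR-130a-3p at -0.02 and miR-301a-3p at 0.20, so that the sign of miR-301a-3p flipped and the order of the members stayed. Whether the change after injection differed between the arms was tested with an interaction term. The difference in log2 fold change (depleted minus undepleted) was -0.12 for miR-130a-3p (95% interval -0.82 to 0.58), -0.30 for miR-301a-3p (-0.89 to 0.28) and -0.24 for miR-130b-3p (-0.93 to 0.44), each with a DESeq2 adjusted p of 0.998. For the human row it was -0.17 (95% interval -0.85 to 0.50, DESeq2 adjusted p = 0.993). DESeq2 called 0 of 874 mouse miRNAs (0%) in this test, with 3 at an unadjusted p-value under 0.05, and edgeR called 0 with 11. A p-value of this size does not show that the arms were alike, and each interval holds both signs.

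Within a library, the ratio of the members to each other does not depend on the scaling. miR-130a-3p had the highest count in 11 of 12 libraries and tied with miR-301a-3p in the smallest, at 22 counts each. miR-301a-3p was above miR-130b-3p in 6 of 6 depleted libraries, by 1.98 to 2.89 times, but in only 4 of 6 undepleted ones, where the ratio ran from 0.774 to 1.78. The order of these 2 members was thus fixed in the depleted arm only. Expressed as a share of the 3 members' counts, miR-130b-3p was 22.7 ± 5.0% in undepleted and 14.4 ± 2.9% in depleted libraries (SD, n = 6, lower in 6 of 6 sera, exact sign-flip permutation test, two-sided, p = 0.03125, the smallest value 6 pairs can give). The share of miR-301a-3p was 27.5 ± 6.0% and 32.8 ± 4.4% (SD, n = 6, higher in 6 of 6 sera, same exact test, p = 0.03125). The share of miR-130a-3p was 49.8 ± 7.7% and 52.7 ± 6.6% (SD, n = 6, higher in 4 of 6 sera, same exact test, p = 0.219). Adjusted over the 4 depletion tests of this kind, the p-values were 0.0625, 0.0625 and 0.292, so that none passed 0.05. The 3 shares of a library sum to the whole, so a lower share of a member raises the others. The tests are thus not separate results, and by CPM miR-301a-3p was higher in the depleted aliquot of 3 sera and lower in 3. The 6 sera came from 3 mice and are not fully independent.

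Between the time points the make-up of the family differed as well, given here without a test. The share of miR-130a-3p went from 47.4 ± 0.9% to 58.0 ± 4.8% in depleted and from 44.7 ± 7.6% to 55.0 ± 3.6% in undepleted libraries (SD, n = 3 each). The share of miR-130b-3p went from 17.0 ± 0.8% to 11.9 ± 0.3% and from 26.2 ± 4.1% to 19.1 ± 2.6% (SD, n = 3 each). The share of miR-301a-3p went from 35.5 ± 0.8% to 30.1 ± 5.1% and from 29.0 ± 6.7% to 25.9 ± 6.2% (SD, n = 3 each). In depleted libraries the time points did not overlap for any of the 3 shares. In undepleted libraries they did not overlap for miR-130a-3p, and they overlapped for the other members.

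**Figure D3:**
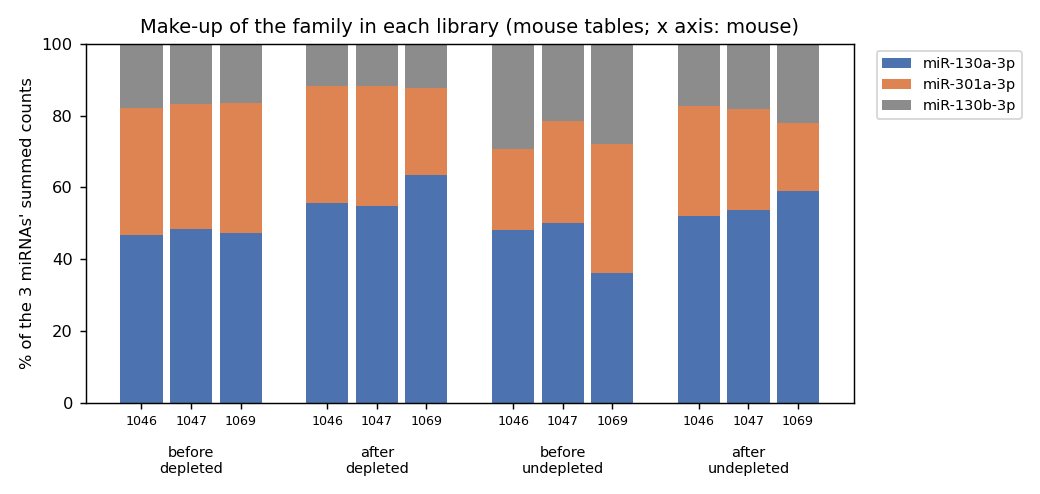
Share of each member in the summed counts of the 3 mouse rows (y axis, percent) in each of the 12 libraries (x axis, by mouse within group). The part of miR-130b-3p is larger in every undepleted library than in the depleted library of the same serum.

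The 2 rows of miR-130a-3p did not hold the same number of reads. Over the 12 libraries the human row held 28018 counts and the mouse row 24858, a gap of 3160 counts or 11.3% of the human count (95% Wilson interval 10.9 to 11.7%, which covers counting error only and takes the mouse count as a part of the human one). This pooled value rests mostly on the depleted libraries after injection, which held 20937 of the human counts. The mean of the 12 libraries was 12.1 ± 1.6% (SD, n = 12, from 10.3 to 15.4%), a spread that the interval does not cover. The human count was the larger in each library, by 4 to 984 counts. Of the 3 members only this one had a gap, as the human rows of miR-130b-3p (MIMAT0000691) and miR-301a-3p (MIMAT0000688) were equal to their mouse rows in all 12 libraries.

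The gap was present before any human cells had been injected. In depleted libraries it was 12.3, 13.1 and 14.6% of the human count before injection (mice 1046, 1047 and 1069) and 11.1, 10.3 and 10.7% after it. In undepleted libraries it was 12.1, 10.3 and 15.4% before, the last from 4 of 26 counts, and 11.6, 11.3 and 12.9% after injection. In depleted libraries the gap was lower after injection in 3 of 3 mice, at 10.7 ± 0.4% against 13.3 ± 1.1% (SD, n = 3 each, exact permutation test, two-sided, p = 0.1, the smallest value 3 against 3 can give, and p = 0.25 in the exact sign-flip test paired by mouse, the smallest for 3 pairs). In undepleted libraries it was 11.9 ± 0.9% against 12.6 ± 2.6% (SD, n = 3 each, exact permutation test, p = 0.8). With 3 mice neither test could reach 0.05 in either arm, so whether the gap changed with time is not decided here. The difference between depleted and undepleted aliquots was -0.25 percentage points (n = 6, exact sign-flip permutation test, p = 0.6875). In counts, the gap summed to 800 in the 3 depleted libraries before injection and to 2239 after it.

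**Figure D4:**
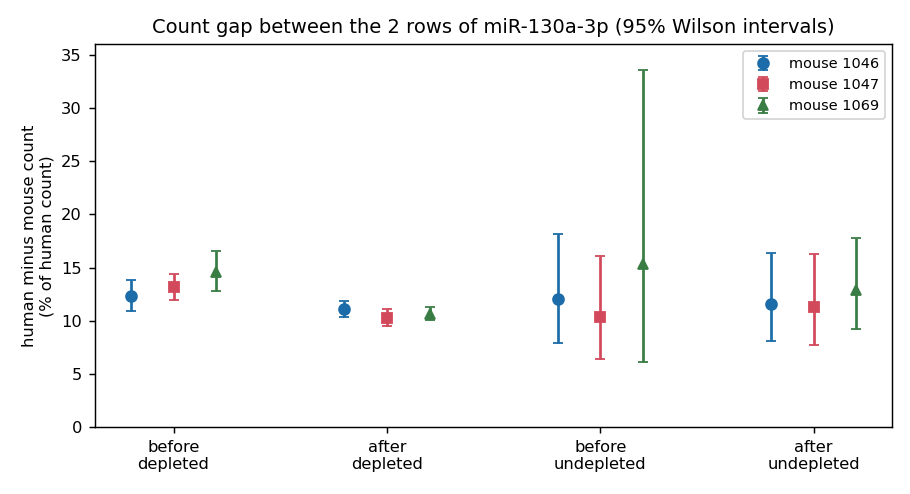
Human minus mouse count of miR-130a-3p as a percent of the human count (y axis) in each library, with 95% Wilson intervals, by group (x axis) and mouse. The intervals are narrow in depleted libraries, whose values before injection all lie above those after it, and wide in undepleted ones.

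How the 2 tables resolve reads of different length or end could not be examined from summed counts. Reads were assigned by comparing their genomic position with annotated miRNA positions, and the exact rule is not given in the sources used here. Why the 2 rows differ was not tested. The hairpin from which miR-130a-3p is cut is shown from RefSeq (GRCm38.p6, chr2:84741115-84741178, minus strand), with the mature 3p arm in capitals.
Mir130a hairpin: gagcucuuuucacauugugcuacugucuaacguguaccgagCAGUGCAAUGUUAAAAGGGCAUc

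In this entry 41 bases precede and 1 base follows the 3p arm. No human hairpin was used here. The opposite arms of the hairpins, usually the less abundant product, were measured as well.
miR-130a-5p: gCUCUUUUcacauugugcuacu
miR-130b-5p: aCUCUUUCccuguugcacuacu

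miR-130a-5p (MIMAT0016983) had 25, 29 and 15 counts in depleted libraries before and 28, 9 and 15 after injection, far below the 3p arm. miR-130b-5p (MIMAT0004583) had 64, 57 and 53 counts before and 146, 195 and 291 after injection. The log2 fold change was -0.85 (SE 0.47) for miR-130a-5p, below 0 where its 3p arm was above it, and 0.91 (SE 0.33) for miR-130b-5p.

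A further member with the family's seed by name, miR-301b-3p (MIMAT0004186), was present at a much lower level. It had 45, 68 and 36 counts in depleted libraries before and 157, 194 and 300 after injection (log2 fold change 1.18, SE 0.33). In undepleted libraries it had 2, 4 and 0 counts before and 5, 4 and 7 after injection, too few to compare. Its human row (MIMAT0004958) had 0, 3 and 0 counts in depleted libraries before and 0, 6 and 23 after injection, so that for this miRNA the mouse row was the larger. miR-301b-3p and miR-130b-3p are encoded side by side, and their levels in depleted libraries before injection were 36.4 ± 2.6 CPM (SD, n = 3) and 424 to 478 CPM.

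The miRNAs whose seed overlaps that of the family with a shift of 1 base had other values. The seeds of miR-19a-3p and miR-19b-3p, members of the miR-17~92 cluster, have the 6 bases GUGCAA in common with the family seed, and those of the miR-148 and miR-152 family have AGUGCA.
miR-19a-3p: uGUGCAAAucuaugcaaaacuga
miR-19b-3p: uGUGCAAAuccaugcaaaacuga
miR-148a-3p: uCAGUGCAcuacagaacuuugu
miR-148b-3p: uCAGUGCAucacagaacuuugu
miR-152-3p: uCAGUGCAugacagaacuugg

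Their log2 fold changes after injection in depleted libraries were -0.64 (SE 0.31) for miR-19a-3p, -0.41 (SE 0.30) for miR-19b-3p, -0.85 (SE 0.51) for miR-148a-3p, -0.27 (SE 0.26) for miR-148b-3p and -0.44 (SE 0.36) for miR-152-3p. For miR-148a-3p and miR-152-3p these values rest on mouse 1069 before injection, which stood at 34895 and 3792 CPM against 5282 to 6540 and 772 to 998 CPM in the other mice. In those 2 mice the CPM of both miRNAs was higher after injection. Without mouse 1069 the DESeq2 values, which do not use the total, were -0.22 (SE 0.16) for miR-148a-3p and 0.26 (SE 0.17) for miR-152-3p, and the other 3 stayed below 0. For miR-148a-3p the 2 measures thus differed in direction. In undepleted libraries 4 of the 5 were between -0.93 and -0.24, and miR-152-3p, with at most 6 counts, was at 0.12 (SE 0.50). In the depletion fit 4 of the 5 were between -0.06 and 0.39, and miR-152-3p was at 4.58 (SE 0.44, DESeq2 adjusted p = 1.33e-23).

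Finally, the miRNAs with the most similar pattern were sought among the 113 other mouse miRNAs of at least 50 CPM in every library, on the log2 CPM of the 12 libraries after subtracting the mean of each arm. The libraries share mice, sera and the 2 time points, so the correlations are a description only. For miR-130a-3p the closest were MIMAT0000140 and MIMAT0000161 (Pearson's r = 0.994 for each), followed by MIMAT0000221 (r = 0.986). miR-130b-3p (r = 0.897) and miR-301a-3p (r = 0.821) came 11th and 19th of 113, and miR-130a-3p in turn came 5th for miR-130b-3p and 6th for miR-301a-3p. For miR-130b-3p the closest was MIMAT0000565 (r = 0.948) and for miR-301a-3p it was MIMAT0000530 (r = 0.928). For each member the 3 closest miRNAs were outside the family, and miR-130b-3p and miR-301a-3p were the least alike pair of members (r = 0.695).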

How the data were processed

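Small RNA libraries (TruSeq small RNA v2, 15 PCR cycles) of 12 serum aliquots (50 μl of serum) were used. The authors deposited raw counts per mature miRNA, 1 mouse and 1 human table per library. Per the study's methods, adaptors were trimmed with Cutadapt (1.8.1 in the submitters' processing notes), reads under 15 bases or without adaptor were dropped, and the rest were mapped with Bowtie (1.1.2) without mismatches and assigned by miRBase v20 coordinates on GRCm38/mm10 or GRCh37/hg19. The handling of reads matching several loci is not given in the sources used here. Missing rows were taken as 0.

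DESeq2 1.42.0 (R 4.3.3) was run on all miRNAs of a table, with the fold change prior, in each arm for time point and over 12 libraries for depletion. The interaction was fitted without the prior. edgeR 4.0.16, TMM factors, a count filter, no prior, size factors without red cell markers, a replicate block (the mouse in the tumour fits, the serum in the others) and leaving out each mouse were alternatives. Scripts were tested on simulated data. Pairs come from the mouse numbers in the labels: deviations from the group mean over 114 abundant miRNAs correlated between the aliquots of a serum (r = 0.506 to 0.847) and not between the time points of a mouse (r = -0.307 to 0.047).

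Members and lists (same seed, shifted seed, other arm, cell markers) were chosen with earlier results of these data known. The text was allowed to mention every row of these lists and, in the likeness comparison, the 3 closest miRNAs of each member, which are given by accession. Names of accessions other than the members and miR-16-5p are from knowledge of miRBase, and no file pairs them. The arm miR-301a-5p and human miRNA sequences were not used here.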

Additional observations from a re-analysis of the deposited data

How the results depend on the processing

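When sera formed the replicate block, the depletion values of miR-130a-3p passed the threshold, at -0.28 for the mouse and -0.25 for the human row (DESeq2 adjusted p = 0.0103 and 0.0419), and the block changed no other depletion or interaction result of the members. The depletion value of miR-301a-3p turned positive with edgeR (0.22), with TMM factors (0.20) and without mouse 1047 (0.0044), in no case past the threshold. The cause was not tested. Leaving out 1 mouse at a time gave -0.30 to -0.18 and -0.26 to -0.20 for depletion of miR-130a-3p (mouse and human row), -0.15 to 0.0044 for miR-301a-3p, and, after injection in depleted libraries, 0.018 to 0.37 for miR-130b-3p (lowest without mouse 1069) and 0.78 to 1.20 for the human miR-130a-3p. Without the 2-fold limit the numbers of called miRNAs were 52, 21 and 55 in the mouse tables (after injection in depleted, in undepleted, and depletion) and 37, 21 and 45 in the human tables. edgeR called 43 and 15 human miRNAs in the 2 tumour fits. Leaving out 1 mouse gave 11 to 32, 1 to 11 and 19 to 33 mouse calls, and 6 to 17, 1 to 8 and 17 to 25 human calls. The lowest tumour counts were those without mouse 1047. As a percent of the mouse count, the gap of miR-130a-3p was 15.4% and 12.0% in depleted libraries (before and after injection) and 13.6% in undepleted ones after injection, because the denominator is smaller. With human-table counts the shares before injection in depleted libraries were 51.0% for miR-130a-3p, 15.9% for miR-130b-3p and 33.1% for miR-301a-3p, and that of miR-130b-3p after injection was 11.1%. Of the alternatives for the members, 34 of 36 values after injection in depleted libraries and all 36 in undepleted ones moved by less than 1 SD, and 29 of 36 depletion values and all 32 of the interaction kept direction and side of the threshold. Depth limits the undepleted arm, where members had as few as 17 counts.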
